A study of Mus musculus with 6 samples.

Results

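The Krüppel-like factors are DNA-binding proteins that share a run of C-terminal zinc fingers, and the members described here are 10 mouse genes: Klf2, Klf3, Klf4, Klf5, Klf6, Klf7, Klf9, Klf10, Klf13 and Klf15. They were taken as every probe whose single gene symbol in the platform annotation is one of these names. That gave 18 of the 38467 probes, and all 10 genes entered the comparison of 27046 genes and unnamed probes. RNA came from the mouse line C3H10T1/2, mesenchymal cells able to form fat, muscle, bone or cartilage, cultured in serum-containing medium. The treated cultures received 1 µM dexamethasone, a synthetic agonist of the glucocorticoid receptor, for 90 minutes (n = 3), and the cultures they were set against received the solvent DMSO, with the same time in their titles (n = 3). The series describes these as biological replicates. Each sample was labelled with Cy3 and hybridised on a two-colour array against a Cy5 pool of RNA from the same line. The sample labels name DMSO, dexamethasone and myostatin cultures as its sources, while the series description leaves myostatin out. The values are log2 ratios to that pool, so they show differences between arrays and not how strongly a gene is expressed. For the same reason the defining markers of the line could not be checked as levels.

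Krüppel-like factors bind GC-rich and CACCC elements through their zinc fingers, while their N-terminal parts recruit different partners. Klf9, Klf10 and Klf13 carry a motif that binds the SIN3A and histone deacetylase corepressor, Klf3 binds the corepressor CtBP, and Klf2, Klf4, Klf5, Klf6 and Klf7 are mostly activators. Klf15 stands apart and is known for control of amino acid and glucose metabolism. Several of these genes act in fat cell formation, where Klf4, Klf5, Klf6, Klf9 and Klf15 are known to favour it and Klf2, Klf3 and Klf7 to oppose it. Klf9 and Klf15 are known targets of the glucocorticoid receptor in several tissues.

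The ratios were read as sample over pool. The labels give the dyes but not the direction, which is called likely because the known receptor targets Dusp1, Fkbp5, Per1, Tsc22d3 and Sgk1 were all higher with dexamethasone in the deposited sign. If the ratio was instead pool over sample, the directions given for all genes turn round. The lowest rank correlation between arrays over all probes was -0.33, between dexamethasone 3 and vehicle 2. Arrays of the same group did not always run together. Dexamethasone 1 correlated at -0.22 with dexamethasone 2 and -0.27 with dexamethasone 3, but at 0.52 with vehicle 1 and 0.40 with vehicle 2. Dexamethasone 2 and 3 correlated at 0.57 with each other, and at 0.40 and 0.34 with vehicle 3. Vehicle 1 and 2 correlated at 0.55 with each other, and at 0.073 and 0.072 with vehicle 3. The arrays fell into 2 sets. Ratios of 2 small whole numbers (1 to 10), which spots of very low signal give, made up 3.79% of the values on dexamethasone 1, 1.86% on vehicle 1 and 1.95% on vehicle 2. On dexamethasone 2, dexamethasone 3 and vehicle 3 they made up 10.5%, 12.7% and 7.73%. The columns were not centred, and the median difference over the whole table, dexamethasone minus vehicle, was 0.32 on the log2 scale. It was 0.018 after centring each array and -0.034 after quantile normalization. The precision is limited by the number of arrays.

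The family split in direction. Among the 10 genes, Klf9 had the clearest separation and was higher with dexamethasone, and Klf2 and Klf13 were higher by less. Klf10, Klf3 and Klf4 were lower. Klf5 was higher on the probe that lists its RefSeq mRNA but not on all its probes. Klf15 was higher on average with overlapping groups. Klf6 and Klf7 differed by little in the deposited values, and lay below the median difference of all genes. None of these differences passed limma's test at a Benjamini-Hochberg adjusted p under 0.05 over all genes. In that fit limma called 0 of 27046 genes and unnamed probes (0%), and 5.43% had an unadjusted p under 0.05. Of the 10 members 0 were called and 5 had an unadjusted p under 0.05, of which Klf2 and Klf9 were higher and Klf3, Klf4 and Klf10 lower. The share of all genes was 4.43% for higher and 0.995% for lower at that threshold. All dexamethasone arrays lay above all vehicle arrays for 3 members (Klf2, Klf9 and Klf13), against 9.95% of all genes, and below them for 3 (Klf3, Klf4 and Klf10), against 7.29%. Of the members 5 lay above 0 and 5 below, against 68.2% and 31.8% of all genes, and their median difference was 0.22, against 0.32. Since the members were picked with earlier results of these data known, these shares describe them and test nothing.

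**Figure D1:**
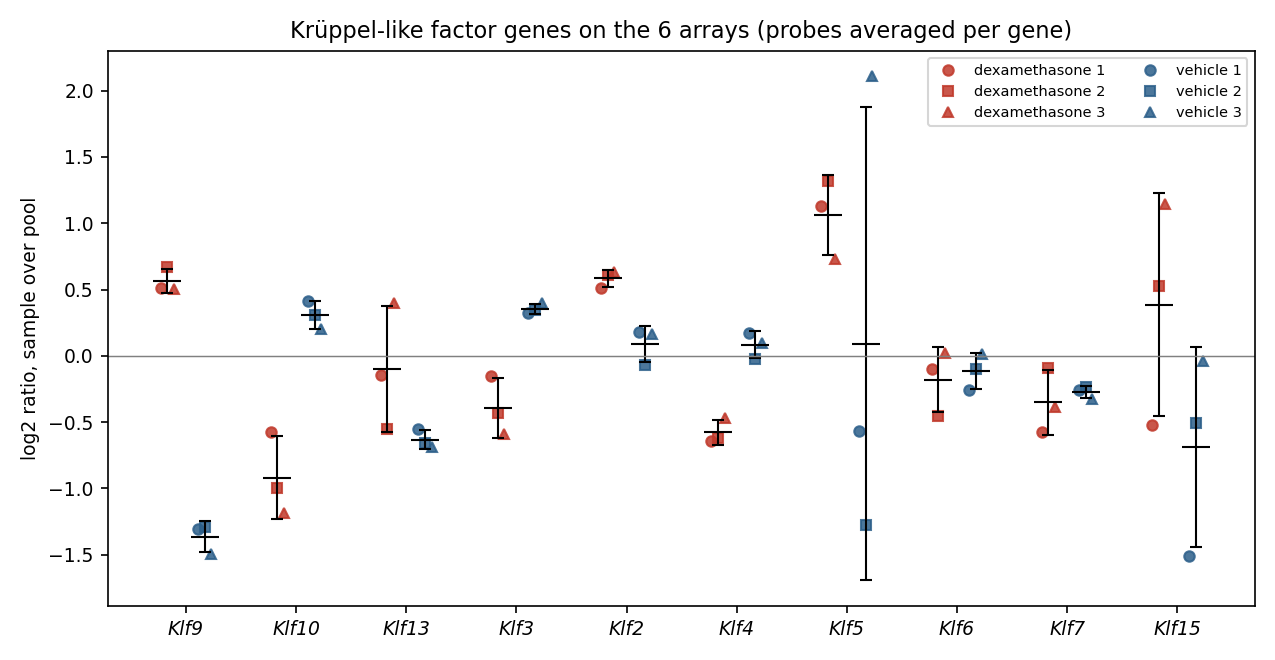
Log2 ratio of sample over pool (vertical axis) for each of the 10 genes on the 3 dexamethasone (red, left) and 3 vehicle arrays (blue, right), probes averaged per gene; marker shapes give the replicate, the long bar the mean and the error bar the SD. Klf9 lies between 0.51 and 0.67 with dexamethasone and between -1.50 and -1.29 with vehicle, Klf10, Klf3 and Klf4 lie lower with dexamethasone, and vehicle 3 of Klf5 stands at 2.11, far above vehicle 1 and 2.

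Klf9, a repressor first described as a protein that binds GC boxes and known in other tissues as an early glucocorticoid and thyroid hormone target, had log2 ratios of 0.52, 0.67 and 0.51 on dexamethasone arrays 1, 2 and 3, against -1.31, -1.29 and -1.50 on vehicle arrays 1, 2 and 3. The groups lay 1.79 apart at their nearest values, and no array stood out within its group. The means were 0.56 ± 0.09 with dexamethasone and -1.36 ± 0.11 with vehicle (SD, n = 3 each). The difference of 1.93 ± 0.17 (SE, limma adjusted p = 0.141) is a 3.80-fold higher level, with a 95% interval of 1.48 to 2.37 on the log2 scale. By p Klf9 ranked 18 among the 27046, while 91.5% of all differences were smaller than its own. It exceeded the median difference of all genes by 1.61. In the fit of single probes without dexamethasone replicate 1 it passed (limma adjusted p = 0.0486), as did 0.434% of probes. It passed under only 1 of 14 alternatives for that fit, where the limma adjusted p ran up to 0.937. Without dexamethasone replicate 1, groups did not overlap for 55.1% of all genes, and the dexamethasone arrays left belong to 1 array set. Klf9 has 1 probe, mMC008447. A filter on low signal left it out, because the value 0.515 on dexamethasone 1 equals the log2 of 10 over 7 at 3 decimals. Chance can give such a match too. The filter kept 17 of the 18 member probes and 9 of the 10 genes.

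Klf10, a repressor known as an early gene of TGF-beta signalling, was the member furthest below vehicle. Its log2 ratios were -0.58, -0.99 and -1.18 on dexamethasone arrays 1 to 3, against 0.41, 0.31 and 0.20 on vehicle arrays 1 to 3. The groups did not overlap, and dexamethasone 1 lay nearest to vehicle. The difference was -1.23 ± 0.23 (SE, limma adjusted p = 0.407), so the level in vehicle was 2.34-fold that with dexamethasone. The 95% interval ran from -1.81 to -0.64. Its 1 probe, mMC018669, was kept by the low-signal filter, after which its limma adjusted p was 0.197 and 0.169% of all genes were called.

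Klf13, the close relative of Klf9 and an activator of chemokine gene expression in T cells, gave less certain values. It had log2 ratios of -0.146, -0.550 and 0.400 on dexamethasone arrays 1 to 3, against -0.552, -0.659 and -0.689 on vehicle arrays 1 to 3. All dexamethasone values were higher, but dexamethasone 2 lay above vehicle 1 by only 0.002. The difference was 0.53 ± 0.29 (SE, limma adjusted p = 0.732), with a 95% interval of -0.21 to 1.28, and it was 0.29 without dexamethasone replicate 3. Thus the SIN3A-binding members held the highest and the lowest difference per gene among the 10 members, at Klf9 and Klf10.

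Klf3, which represses transcription through CtBP and opposes fat cell formation, was lower on both of its probes. Averaged, its log2 ratios were -0.15, -0.43 and -0.59 on dexamethasone arrays 1 to 3, against 0.32, 0.35 and 0.40 on vehicle arrays 1 to 3. The vehicle values lay close together and the dexamethasone values were spread, all of them below. The difference was -0.75 ± 0.20 (SE, limma adjusted p = 0.685), 1.68-fold in favour of vehicle. Probe mMC016615 differed by -0.94 ± 0.35 and probe mMR030076 by -0.56 ± 0.23 (SE). They differed by -0.58 without dexamethasone replicate 3 (mMC016615) and by -0.37 without dexamethasone replicate 2 (mMR030076). On mMC016615 most of the spread came from dexamethasone 3, at -1.08, while dexamethasone 1 and 2 stood at 0.040 and -0.067.

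Klf4, an activator and repressor best known as a reprogramming factor and as an early gene of fat cell formation, had 4 probes, and all 4 were below vehicle. Averaged, its log2 ratios were -0.65, -0.62 and -0.47 on dexamethasone arrays 1 to 3, against 0.17, -0.027 and 0.098 on vehicle arrays 1 to 3. The groups did not overlap and had similar spreads, 0.10 with dexamethasone and 0.10 with vehicle (SD, n = 3 each). The difference was -0.66 ± 0.17 (SE, limma adjusted p = 0.685), 1.58-fold in favour of vehicle. Probe mMC017120 differed by -0.80 ± 0.17, mMR027787 by -0.75 ± 0.15, mMC025684 by -0.71 ± 0.25 and mMR030972 by -0.38 ± 0.23 (SE), the last by -0.21 without dexamethasone replicate 1. Probe mMR030972 was the only Klf4 probe whose groups overlapped, with dexamethasone 2 at -0.069 and vehicle 2 at -0.14. Over all probes, groups did not overlap in either direction for 18.8%, and among the 18 member probes for 10.

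Klf2, an activator known from endothelial cells and lymphocytes and an inhibitor of fat cell formation, was slightly higher. Its 1 probe read 0.51, 0.61 and 0.63 on dexamethasone arrays 1 to 3, against 0.18, -0.067 and 0.16 on vehicle arrays 1 to 3. Both groups were narrow and did not overlap. The difference was 0.49 ± 0.18 (SE, limma adjusted p = 0.732), or 1.41-fold. It exceeded the median difference of all genes by 0.18 only. After centring each array on its median it was 0.19, after quantile normalization 0.14, and the groups then overlapped. Klf13 likewise overlapped under both scalings, with 0.23 after centring and 0.47 after quantile normalization. Klf9, Klf3, Klf4 and Klf10 stayed without overlap under both, where 9.57% and 9.24% of all genes did not overlap. After quantile normalization the differences of Klf10, Klf3 and Klf4 were larger in size, at -2.32, -1.55 and -1.21, and that of Klf9 was 2.03.

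Klf5, an activator that in fat cell formation acts downstream of Cebpb and Cebpd, had probes that disagreed. Probe mMR028863, annotated with the RefSeq mRNA of Klf5, read 0.70, 0.81 and 1.05 on dexamethasone arrays 1 to 3, against -0.68, -0.82 and -0.85 on vehicle arrays 1 to 3. These groups were clearly apart, and the difference of 1.63 ± 0.17 (SE) ranked 48 by p among 36465 probes, with a limma adjusted p of 0.146 over all probes. It corresponds to a 3.10-fold higher level. The other two probes list only cDNA clones. Probe mMC000793 read 1.15, 1.87 and 0.70 on dexamethasone arrays 1 to 3, against -0.48, 0.064 and 4.38 on vehicle arrays 1 to 3. Probe mMC011641 read 1.55, 1.28 and 0.44 on dexamethasone arrays 1 to 3, against -0.53, -3.07 and 2.81 on vehicle arrays 1 to 3. On both, dexamethasone lay above vehicle 1 and 2 and below vehicle 3. The gene average therefore differed by 0.97 ± 0.94 (SE, limma adjusted p = 0.739), by 1.98 without vehicle replicate 3 and by 0.29 without vehicle replicate 2. In the fit of single probes after the low-signal filter, mMR028863 passed (limma adjusted p = 0.0435), as did 0.19% of the 23112 probes tested there. It was singled out after its values were seen.

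**Figure D2:**
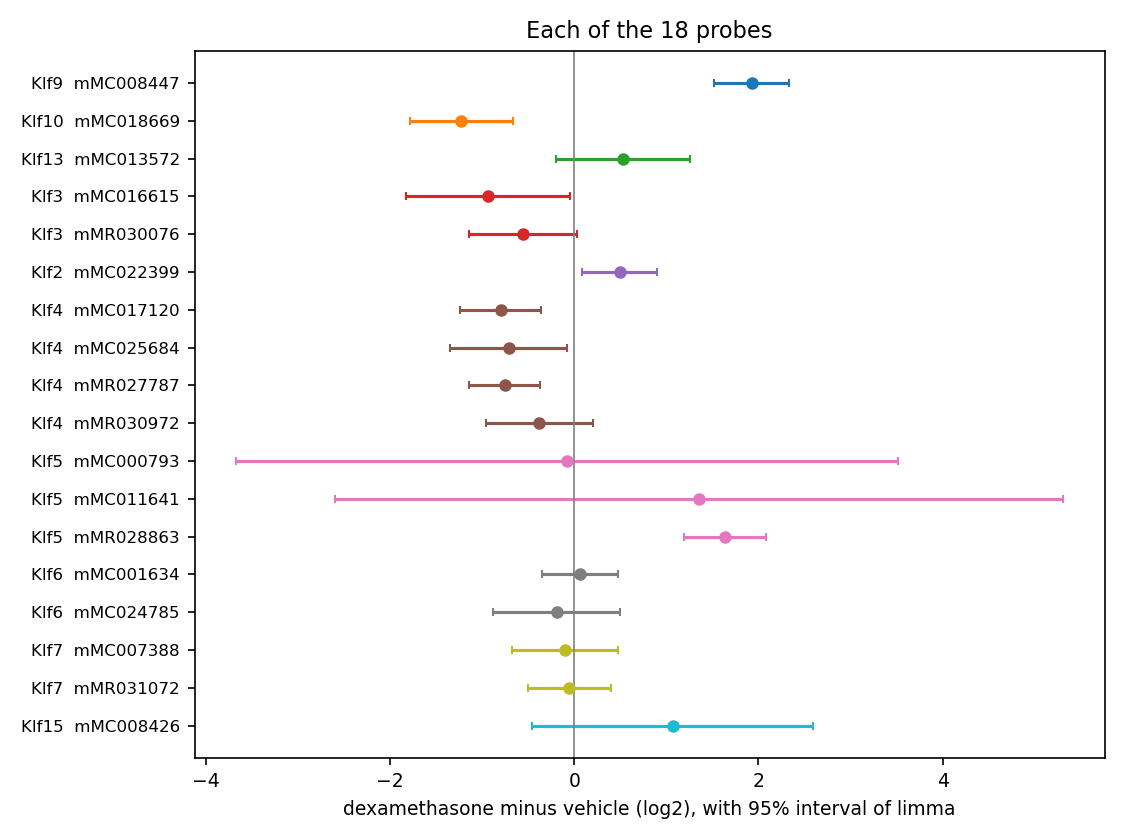
Dexamethasone minus vehicle on the log2 scale (horizontal axis) for each of the 18 probes, grouped by gene and coloured by gene, with the 95% interval from limma. All 4 Klf4 probes and both Klf3 probes lie below 0, and of the 3 Klf5 probes mMR028863 has a narrow interval above 0 while the others span several log2 units.

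Klf6 and Klf7, activators known from tissue injury and from neurons, showed little difference in the deposited values, which were not centred. Klf6 averaged -0.18 ± 0.25 with dexamethasone and -0.12 ± 0.14 with vehicle (SD, n = 3 each). Its difference of -0.063 had a 95% interval of -0.61 to 0.48 (limma adjusted p = 0.918). Klf7 averaged -0.35 ± 0.24 with dexamethasone and -0.27 ± 0.05 with vehicle (SD, n = 3 each), a difference of -0.078 with an interval of -0.59 to 0.44 (limma adjusted p = 0.893). The groups overlapped for both genes. Both intervals reach well to either side of 0, so the values do not show that these genes stayed the same. Measured from the median difference of all genes, Klf6 stood at -0.38 and Klf7 at -0.40. After centring each array their differences were -0.37 and -0.39, and after quantile normalization -0.26 and -0.19, in the same order.

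Klf15, a regulator of amino acid breakdown and a known receptor target in muscle and airway, was variable in both groups. It read -0.52, 0.53 and 1.15 on dexamethasone arrays 1 to 3, against -1.51, -0.50 and -0.038 on vehicle arrays 1 to 3. The highest and lowest arrays of each group differed by more than the groups did. The difference was 1.07 ± 0.60 (SE, limma adjusted p = 0.732), with an interval of -0.46 to 2.60, and it was 0.66 without vehicle replicate 1 and 0.69 without dexamethasone replicate 3. Dexamethasone 1 lay just below vehicle 2, and vehicle 3 was the highest vehicle array.

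Within the sets of arrays the differences can be set side by side without a test, since each set has a lone array in 1 group. In dexamethasone 1 against vehicle 1 and 2, Klf9 differed by 1.81, and in dexamethasone 2 and 3 against vehicle 3 by 2.08. Klf10 differed by -0.94 and -1.29, Klf3 by -0.49 and -0.91, and Klf4 by -0.72 and -0.64 in the same order. These 4 genes lay on the same side of 0 in both sets. Klf2 differed by 0.46 in each set, Klf13 by 0.46 and 0.61, and Klf15 by 0.49 and 0.88. Klf5 differed by 2.05 in the first set and by -1.09 in the second, where vehicle 3 was its highest array. Klf6 and Klf7 also changed sign between the sets. Counted together, 4 members were above 0 in both sets, against 29% of all genes, and 3 below 0 in both, against 24%.

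**Figure D3:**
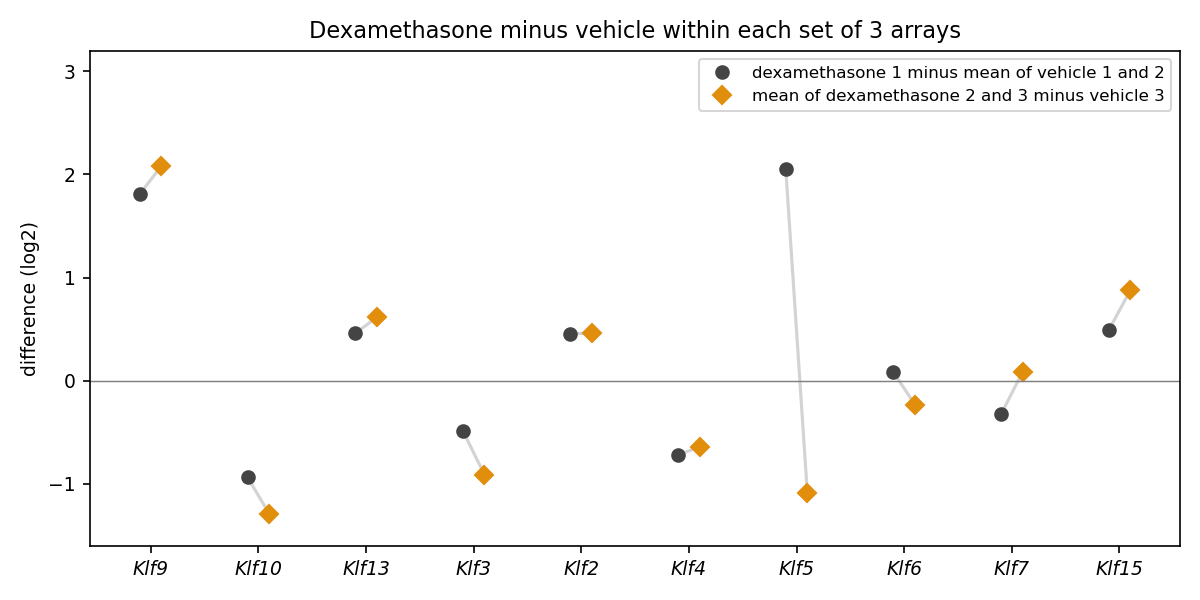
Difference on the log2 scale (vertical axis) for each gene within each set of 3 arrays; circles show dexamethasone 1 minus the mean of vehicle 1 and 2, diamonds the mean of dexamethasone 2 and 3 minus vehicle 3. Klf9 is near 2 in both sets, Klf10, Klf3 and Klf4 are below 0 in both, and Klf5 stands at 2.05 in the first set and at -1.09 in the second.

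Because array centring shifts every gene on an array alike, Klf9 was also set against the mean of the other 9 members on the same array. That quantity was 0.63, 0.74 and 0.47 on dexamethasone arrays 1 to 3, against -1.08, -1.04 and -1.71 on vehicle arrays 1 to 3. The groups did not overlap, and vehicle 3 was the array furthest from the rest. The mean of the other 9 members includes Klf5, which stood at 2.11 on vehicle 3. The difference was 1.89, with an exact two-sided permutation p of 0.1, the smallest that 20 splits of 6 arrays can give. Without vehicle replicate 3 the difference was 1.68. The mean of the other 9 members itself was -0.054 ± 0.078 with dexamethasone and -0.087 ± 0.26 with vehicle (SD, n = 3 each), a difference of 0.033. Klf9 was picked for this with its values known, so the numbers describe its size relative to its family.

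**Figure D4:**
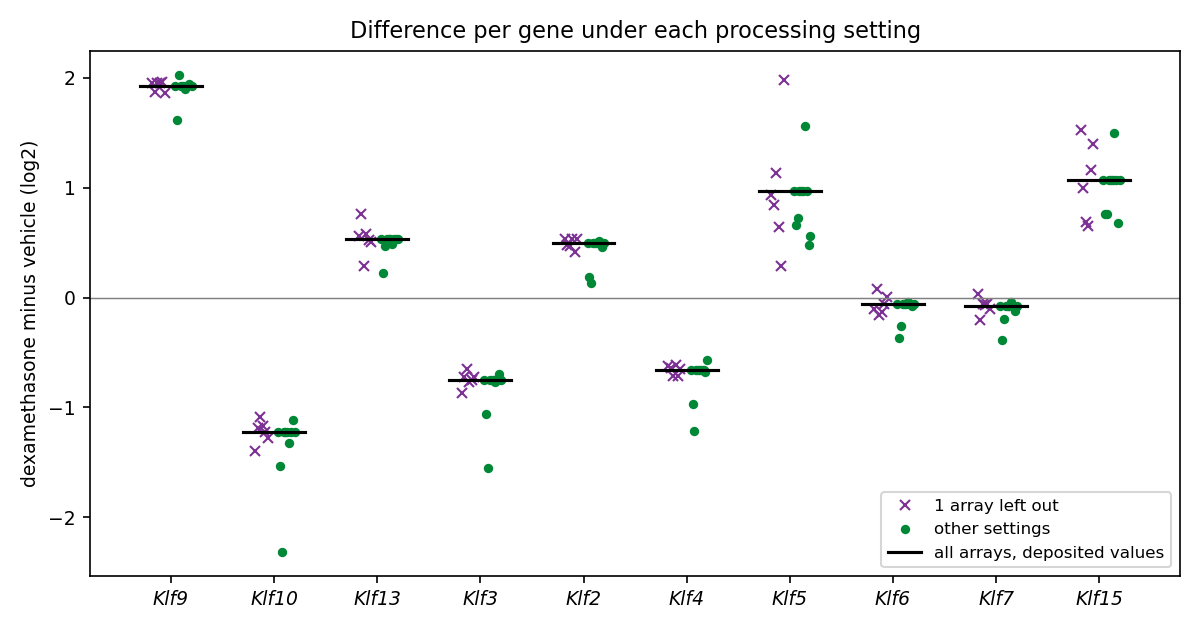
Difference per gene, dexamethasone minus vehicle on the log2 scale (vertical axis), with all arrays and the deposited values (black bar), with 1 array left out (crosses) and under the other settings (dots). Klf9 stays between 1.62 and 2.03, Klf10 between -2.32 and -1.09, and Klf5 ranges from 0.29 to 1.98. Klf6 ranges from -0.37 to 0.075 and Klf7 from -0.39 to 0.034.

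RefSeq start regions (GRCm38.p6) were found for 8 of the 10 members. The 250 bases before the start are shown for 4 whose groups did not overlap, Klf9 and Klf2 among the higher genes and Klf3 and Klf4 among the lower ones. The window of Klf13, whose groups did not overlap either, is not printed. Capitals mark the GC box GGGCGG and the CACCC element, to which Krüppel-like factors bind, on either strand.
Klf9 (chr19:23140976-23141225, plus strand): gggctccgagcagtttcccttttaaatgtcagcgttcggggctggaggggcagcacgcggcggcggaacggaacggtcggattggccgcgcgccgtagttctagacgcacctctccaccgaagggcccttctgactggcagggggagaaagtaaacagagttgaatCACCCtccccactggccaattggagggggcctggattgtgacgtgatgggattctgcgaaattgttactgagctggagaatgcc
Klf2 (chr8:72318812-72319061, plus strand): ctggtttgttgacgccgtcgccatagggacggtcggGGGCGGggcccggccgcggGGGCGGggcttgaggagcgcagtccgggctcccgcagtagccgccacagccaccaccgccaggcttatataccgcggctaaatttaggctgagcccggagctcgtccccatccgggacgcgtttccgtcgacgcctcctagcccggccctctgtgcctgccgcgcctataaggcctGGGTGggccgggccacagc
Klf3 (chr5:64803271-64803520, plus strand): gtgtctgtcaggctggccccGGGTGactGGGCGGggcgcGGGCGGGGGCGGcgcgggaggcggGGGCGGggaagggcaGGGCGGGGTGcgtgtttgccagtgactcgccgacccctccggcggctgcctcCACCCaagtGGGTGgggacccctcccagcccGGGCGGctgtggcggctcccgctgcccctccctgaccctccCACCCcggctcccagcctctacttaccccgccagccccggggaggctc
Klf4 (chr4:55532476-55532725, minus strand): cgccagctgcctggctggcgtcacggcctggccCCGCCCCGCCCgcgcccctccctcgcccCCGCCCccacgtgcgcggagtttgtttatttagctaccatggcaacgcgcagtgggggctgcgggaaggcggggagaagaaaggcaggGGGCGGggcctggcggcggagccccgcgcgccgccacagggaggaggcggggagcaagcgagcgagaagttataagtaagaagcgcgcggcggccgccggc

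All 4 windows are rich in G and C, at 59.6% in Klf9, 71.2% in Klf2, 78.4% in Klf3 and 74% in Klf4, against a median of 52.4% over 32851 start regions. Klf9 had 0 GC boxes and 1 CACCC element in its window. Klf2 had 2 GC boxes and 1 CACCC element, Klf3 had 6 and 5, and Klf4 had 4 and 0, with overlapping matches counted apart. In Klf3, 1 GC box and 1 CACCC element overlap, as the run GGGCGGGGTG. The window of Klf13 held 3 GC boxes and 1 CACCC element, with 1 such overlap. Over the 8 members, 7 windows held a GC box, against 32.7% of all start regions, and 6 held a CACCC element, against 52%. The half-site AGAACA of the glucocorticoid receptor, searched on both strands, was in 0 of the 8 windows and in 16.1% of all. The full palindrome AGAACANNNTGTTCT was in 0 of the 8 and in 0.00913% of all, TATAAA in 0 and 12.4%, and the CArG box, bound by serum response factor, in 0 and 1.47%. The shares over all start regions were not matched for G and C content, which was 59.2% to 78.4% in the 8 windows. They therefore show neither an excess nor a lack of a motif beyond base content. A match is a stretch of letters and not a bound site, and no match says nothing about sites outside these windows.

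The symbols whose log ratios ran most like those of Klf9 over the 6 arrays were ranked by Pearson's r among 8202 genes that varied across the arrays (SD of at least 0.5). They were Grasp (0.999), Fabp4 (0.998), Nfil3 (0.998), Glul (0.998) and Dusp1 (0.998). The low-signal filter left out the 1 probe of Nfil3, as it did that of Klf9. Grasp encodes a scaffold protein of membrane receptors, Fabp4 a fatty acid carrier of fat cells, Nfil3 a transcription factor of the clock, Glul glutamine synthetase and Dusp1 a MAP kinase phosphatase. All 5 lay above vehicle on all dexamethasone arrays, against 9.95% of all genes. That follows from picking them by likeness to Klf9 and is no separate result. The differences were 1.25 for Grasp, 1.91 for Fabp4, 2.39 for Nfil3, 3.45 for Glul and 4.26 for Dusp1 on the log2 scale. The arrays share a pool and the treatment contrast, so these coefficients describe a pattern over 6 points.

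Other members of the wider family were also on the array. Of 15 other Klf and Sp genes listed, 14 were measured, 9 with a difference above 0 and 5 below. The shares of all genes were 68.2% and 31.8%. Limma called 0 of the 14 and 0 had an unadjusted p under 0.05, against 5.43% of all genes. For 1 of them, the activator gene Sp3 (-0.24 ± 0.17, SE), the groups did not overlap, against 17.2% of all genes. The smallest p belonged to Sp7, the bone transcription factor (1.82 ± 1.06, SE), Sp6 (1.29 ± 0.80, SE) and Sp5 (-1.51 ± 0.92, SE, with values on 2 arrays per group). The groups of Sp7 and Sp6 overlapped. In dexamethasone 1 against vehicle 1 and 2, Sp7 differed by -0.07 and Sp6 by -0.12. In dexamethasone 2 and 3 against vehicle 3 they differed by 2.555 and 1.71. Klf11, the nearest relative of Klf10, differed by -0.28 ± 0.24 (SE), and is named after its value was seen. The list's median difference was 0.09.

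Among 14 cofactors of the family limma called 0, and 5 had groups that did not overlap, against 17.2% of all genes. The acetyltransferase gene Ep300, a coactivator of several members, read 0.39, 0.23 and 0.37 on dexamethasone arrays 1 to 3, against -0.44, -0.46 and -0.49 on vehicle arrays 1 to 3. Its difference was 0.79 ± 0.16 (SE, limma adjusted p = 0.453), and it was the 1 cofactor with an unadjusted p under 0.05, against 5.43% of all genes. The related coactivator gene Crebbp differed by 0.31 ± 0.17 and the deacetylase gene Hdac1 by -0.81 ± 0.40 (SE). The corepressor gene Sin3a, a partner of Klf9 and Klf10, differed by 0.0018 ± 0.34 (SE). The list's median difference was 0.22.

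Of 9 genes that act upstream of Klf2 and Klf4, 5 did not overlap, against 17.2% of all genes, and 0 were called by limma. The ternary complex factor gene Elk3 differed by -0.50 ± 0.17, Mapk7, the ERK5 kinase, by 0.51 ± 0.27, and the transcription factor gene Mef2c by -0.34 ± 0.19 (SE). Elk3 alone had an unadjusted p under 0.05, against 5.43% of all genes, and the median was -0.069. Of 22 measured textbook targets of the family, out of 24 listed, 11 lay above 0 and 11 below, with a median of 0.041. The shares of all genes were 68.2% and 31.8%. Limma called 0 of the 22 targets and 3 had an unadjusted p under 0.05, against 5.43% of all genes. The cell cycle inhibitor gene Cdkn1a, a known target of Klf4 and Klf6, differed by 0.86 ± 0.22, while the protease gene Plau differed by -0.74 ± 0.25 and the growth factor gene Pdgfa, a Klf5 target, by -0.45 ± 0.17 (SE).

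In the fat cell cascade, 10 genes were measured, 6 did not overlap, against 17.2% of all genes, and 0 were called by limma. Cebpb and Cebpd, which switch on Klf5 in fat cell formation, differed by 3.18 ± 0.24 and 2.16 ± 0.35, and Egr2, which acts beside Klf4 upstream of Cebpb, by -1.13 ± 0.23 (SE). Pparg differed by -0.42 ± 0.29 and Cebpa by 0.13 ± 0.35 (SE), named after their values were seen. The median was -0.033. In the receptor list, the 5 targets used to judge the direction were higher, with Dusp1 at 4.26 ± 0.18, Fkbp5 at 3.93 ± 0.35 and Per1 at 2.21 ± 0.23 (SE), and 0 of the 6 genes were called. The receptor gene Nr3c1 itself read -0.19, -1.24 and -0.51 on dexamethasone arrays 1 to 3, against 0.32, 0.16 and 0.25 on vehicle arrays 1 to 3. Its difference was -0.89 ± 0.32 (SE, limma adjusted p = 0.732).

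Markers of other cells and of the line itself were compared in the same way. Of 7 markers of blood, endothelial and epithelial cells, 6 lay above 0, against 68.2% of all genes, and limma called 0. The median of the list on an array ran from -0.57 to 2.14 with dexamethasone and from -0.31 to 0.75 with vehicle. Between the 2 array sets, 1 of these markers kept its side of 0 and 4 changed it. Of 8 fibroblast markers, 7 lay below 0, against 31.8% of all genes, and limma called 0. Their array medians were -0.28 to 0.13 with dexamethasone and 0.12 to 0.21 with vehicle. Between the array sets, 5 of the fibroblast markers kept their side of 0 and 3 changed it. The part of both marker lists in the differences of the Klf genes was not tested. All cultures were of the same line, and ratios to a pool do not show whether a marker of other cells was expressed in it. In bulk RNA such as this, fewer cells of a type and less RNA per cell cannot be told apart.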

How the data were processed

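Transcripts were measured on 6 two-colour arrays, 3 per group, grouped by sample title. The deposited numbers were read as log2 ratios, a scale inferred from the values. On 4 columns a few values exceed 100 in size, so these were entered as a score with no fixed range in the deposited table. The submitters' processing notes name limma. Their background correction, normalization, filters and build are not given in the sources used. Of the 38467 probes, 29456 carried 1 symbol. Their Entrez identifiers were looked up in RefSeq, which changed 0 symbols. Probes of a gene were averaged and the other probes kept as they were, and at least 2 values per group were required.

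R 4.3.3 with limma 3.58.1 (lmFit, eBayes) was fitted to all genes and unnamed probes, two-sided, without a block, with Benjamini-Hochberg adjustment at 0.05. A fit of single probes was added. SE is the moderated standard error. The fit was checked on simulated data. P-values rest on the spread between these arrays, in which cultures, arrays and the 2 array sets are mixed. The pool cancels only if all arrays used the same one, which was not verified. A low-signal filter left out 15355 probes that lacked a value, equalled a ratio of 2 whole numbers up to 10, or exceeded 10 in size on at least 1 array. The members, gene lists and tests were chosen with earlier results of these data known. Named were all members, the 3 genes of smallest p per pathway list, the 5 genes most like Klf9, and a few exceptions. The exceptions were Sp3, Klf11, Sin3a, Pparg, Cebpa, and the receptor gene Nr3c1 with all its listed targets. Alternatives were a replicate block, an array set block, centring, quantile normalization, other probe and value filters, the median over probes, array weights, a robust prior and leaving out each array.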

Additional observations from a re-analysis of the deposited data

How the results depend on the processing

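The limma count of 0 over all genes was 5 with only probes measured on all 6 arrays and 29 without low-signal probes; the cause was not tested. It was 0 under every other setting tried, including leaving out any 1 array. As a gene, none of the members was called under any of them. The 6 members without overlap (17.2% of all genes) numbered 4 after centring (9.57%) and 4 after quantile normalization (9.24%), and 5 without low-signal probes (19.7%), which leaves out Klf9. With 1 array left out they numbered 6 to 7, but the share of all genes was then 20.5% to 55.1%, highest without dexamethasone replicate 1, so these counts cannot be set against the 6. Klf9 ranged from 1.62 to 2.03 over 15 alternatives, with limma adjusted p from 0.0632 to 0.989, and from 1.86 to 1.96 with 1 array left out. Against the other members on the same array it ran from 1.68 to 2.41 over all alternatives.

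Klf2, Klf3, Klf4, Klf5, Klf9, Klf10, Klf13 and Klf15 kept their sign under all alternatives that measured them. With 1 array left out, Klf6 ran from -0.16 to 0.075 (above 0 at 0.0021 without vehicle replicate 3 too) and Klf7 from -0.21 to 0.034. Klf6 was -0.37 after centring and -0.26 after quantile normalization, and Klf7 -0.39 and -0.19. Probe mMC001634 of Klf6 was -0.24 after centring, -0.094 after quantile normalization and -0.00067 to 0.14 with 1 array left out, where mMC024785 of Klf6 ran from -0.35 to 0.051, mMC007388 of Klf7 from -0.29 to 0.0082 and mMR031072 of Klf7 from -0.12 to 0.0595. Probe mMC000793 of Klf5 was 0.86 with array weights and -0.98 to 1.45 with 1 array left out, where mMC011641 of Klf5 ran from -0.047 to 2.89. In the fit of single probes, Klf9 passed under 1 of 14 alternatives, without dexamethasone replicate 1 (limma adjusted p = 0.0486, as did 0.434% of probes). The cause of these shifts was not tested.

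The replicate numbers in the titles were not taken to pair the arrays: same-numbered arrays deviated from their group means with correlations of 0.30, -0.099 and 0.24. With the replicate number as a block, limma called 0 genes, Klf9 stayed at 1.93 and its adjusted p was 0.711.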
